A study of Homo sapiens with 5 samples.

Results

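The nuclear-encoded subunits of the oxidative phosphorylation complexes were followed in 5 RNA-seq libraries of MDA-MB-231, a cell line from a triple-negative breast cancer with a mesenchymal-like character. The set held 41 genes out of 10596 in the gene table: 18 of complex I, 3 of complex II, 4 of complex III, 7 of complex IV and 9 of complex V. A gene entered by its symbol, and where several transcripts of it were listed (8 of the 41 genes), the one most abundant on average across the libraries stood for it. All 41 had a mean of at least 50 scaled counts in every comparison, the floor used here for all genes.

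Each group was a single library of the same cell line. Cells of siNT received a control siRNA and cells of siSET an siRNA against SET, both for 48 hours. Cells of siCIP2A received an siRNA against CIP2A, for which the sample's own label names no time and the shared protocol gives 48 hours. PBS cells were kept with the vehicle for 12 hours, and OP449 cells with the SET antagonist OP449 at 1 µM for 12 hours. SET and CIP2A are inhibitors of the phosphatase PP2A, and the genes for both lie outside the chromosomes in the table, so silencing was not analysed here. With 1 library per group, no difference has a replicate check and no test between conditions exists. Recovered reads per library over the gene table ran from 3641329 in siSET to 5602224 in siCIP2A. The markers of the line, VIM, CD44, KRT8, KRT18, KRT19 and MYOF, were past the floor of 50 in all 5 libraries. Their levels were not all steady: MYOF had 7779 scaled counts in siNT and 2270 in siSET. CD44 had 15270 in PBS and 20560 in OP449. PGR and LYVE1 were at 0 in all 5, PTPRC, PECAM1, CDH5 and PLIN1 had at most 9.02 scaled counts, and CDH1 had 12.9 to 56.7. PGR and CDH1 come from a list of 5 luminal or hormone receptor markers. The other 3, EPCAM, GATA3 and ERBB2, had means past the floor. EPCAM had 282 scaled counts in siNT and 139 in siCIP2A, and GATA3 had 250 in siNT and 133 in OP449.

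Oxidative phosphorylation is carried out in the inner mitochondrial membrane. Complexes I and II pass electrons from NADH and succinate to ubiquinone, complex III passes them on to cytochrome c, and complex IV passes them to oxygen, while complexes I, III and IV pump protons that drive ATP synthase, complex V. Most subunits are encoded in the nucleus and imported, and a few of complexes I, III, IV and V are encoded in mitochondrial DNA. Nuclear subunit genes are known to be expressed together, with binding sites for NRF1, for GABP of the ETS family and for YY1 in many of their promoters. Breast cancer lines differ in how far they rely on this route or on glycolysis for ATP.

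The subunits took a similar share of each library. They accounted for 0.883% of the reads in siNT (95% exact Clopper-Pearson interval 0.875 to 0.891) and 0.901% in PBS (0.893 to 0.908), the control libraries. The share was 0.916% in siSET (0.906 to 0.926), 0.912% in siCIP2A (0.904 to 0.920) and 0.857% in OP449 (0.849 to 0.866). OP449 had the lowest share and its interval lay below the other 4. Such intervals, here and below, cover counting error only: reads carry no molecular identifiers and variation between cultures was not measured. In bulk RNA, fewer cells of a kind and less RNA per cell cannot be told apart.

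Levels of different genes were compared as scaled counts per kilobase of transcript, in the 38 subunits whose transcript model was under 5000 bases. COX8A, a small subunit of complex IV, was highest at 6709 ± 326 per kilobase (mean and SD over the 5 libraries). ATP5B, the catalytic beta subunit of ATP synthase, followed at 4346 ± 234, and NDUFS5, an accessory subunit of complex I, at 2808 ± 175. The next gene, COX4I1 at 2648 ± 178, was below NDUFS5 in every library but PBS, where it had 2860 against 2573. The SD is over libraries of different treatments and is no measure of error between genes. At the low end were NDUFA3 of complex I at 237 ± 32.3 and UQCRFS1, the Rieske iron-sulfur protein of complex III, at 238 ± 17.9. Their order was not the same in all libraries. Each length was that of the longest linked GENCODE transcript, 963 bases for NDUFA3 and 3475 for UQCRFS1. Before division by length, UQCRFS1 had a mean of 826 scaled counts and NDUFA3 228. How far the place of UQCRFS1 rests on its long transcript model was not tested. On these lengths, subunits of 1 complex spanned a wide range of transcript levels, from 237 to 2808 per kilobase within complex I alone. The libraries were primed with oligo-dT, and any effect of that on levels per kilobase was not tested.

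**Figure D1:**
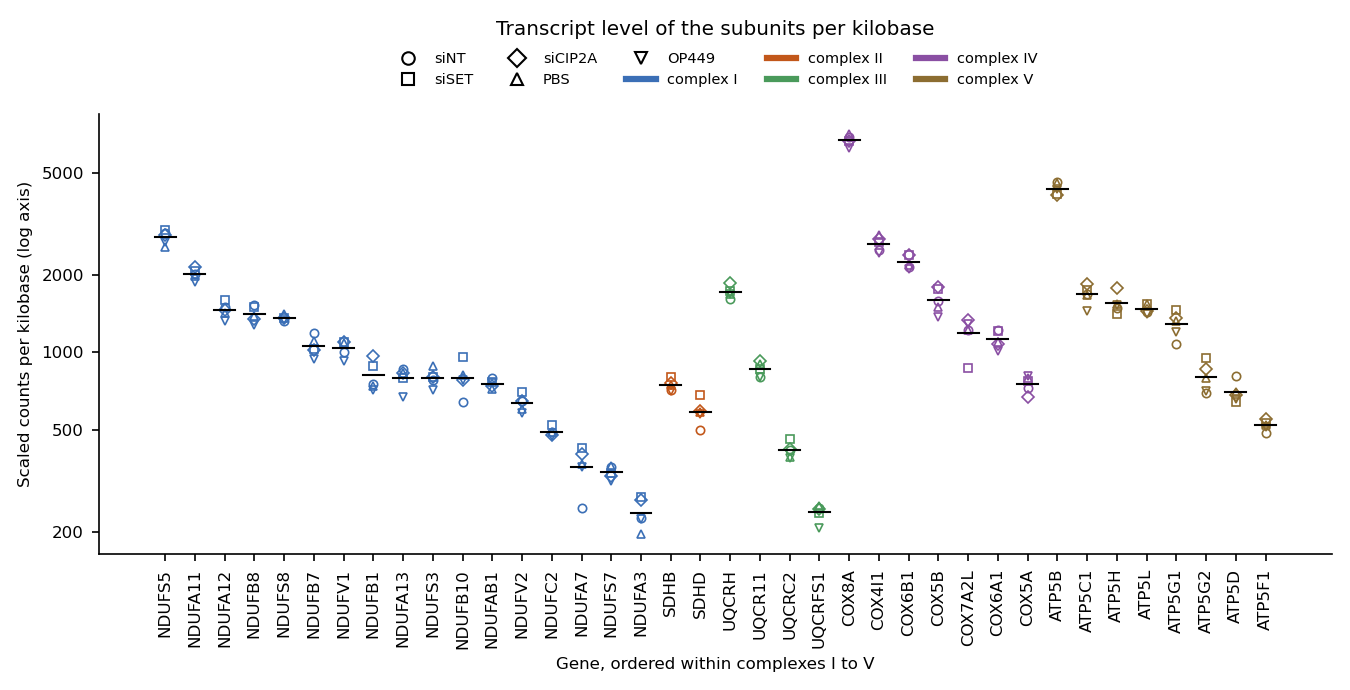
Scaled counts per kilobase of transcript (log axis) of 38 subunits, ordered within complexes I to V; each symbol is 1 library and each black line the mean over 5. COX8A at 6709 and ATP5B at 4346 stand above the rest, and the symbols of a gene lie close together beside the distance between genes.

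Between libraries the subunits varied less than most genes. The coefficient of variation over the 5 libraries had a median of 7.53% over the 41 subunits, 11.5% over the 6093 genes past the floor and 10.4% over the 4538 genes within the range of the subunits' means. Counting error alone would give a median of 3.69% for the subunits. NDUFS8, a core iron-sulfur subunit of complex I, was the steadiest at 2.61%, below its counting error of 3.46%. NDUFA7 varied most, at 19.1%, and COX7A2L stood farthest above its counting error, at 15.4% against 3.09%.

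The promoters of several subunits hold letters that match binding sites of known regulators of this pathway. The 7 with the NRF1 core are all shown, since that motif is compared with the folds below, along with 1 example each for YY1 and ETS. Of the 41 genes, 36 matched a promoter in RefSeq (GRCh38.p14), taken from 250 bases before to 50 after the start. Windows of 30 bases are printed 5′ to 3′ along the gene, with the motif in capitals. The full NRF1 palindrome is in capitals in SDHD (chr11:112086753-112086782, plus strand) and ATP5C1 (chr10:7788145-7788174, plus). Its core GCATGCGC is in capitals in ATP5G2 (chr12:53676105-53676134, minus), SDHB (chr1:17054214-17054243, minus), COX5B (chr2:97645915-97645944, plus), COX6A1 (chr12:120437884-120437913, plus; the first of 2 matches) and NDUFS7 (chr19:1383823-1383852, plus). The YY1 motif AAGATGGC is shown for NDUFA7 (chr19:8321343-8321372, minus) and the ETS motif CCGGAAGT for NDUFA13 (chr19:19516204-19516233, plus).
SDHD: agctgtgtttGCGCATGCGCgacgggtgtg
ATP5C1: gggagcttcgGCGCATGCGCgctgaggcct
ATP5G2: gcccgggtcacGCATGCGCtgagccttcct
SDHB: aagccaaatggGCATGCGCcgctactgcgc
COX5B: ggcagagctggGCATGCGCaatttccgccc
COX6A1: ggagggcacacGCATGCGCacgaaggaaac
NDUFS7: ttccggtttccGCATGCGCtccgagccgct
NDUFA7: atcgcggacggAAGATGGCgtccgccaccc
NDUFA13: tccgcccgggaCCGGAAGTgtgggatactg

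On either strand, the core GCATGCGC, which lies inside the palindrome, was in 7 of 36 promoters (19.4%), against 5.79% of the 5147 promoters of genes past the floor and 3.27% of all 27305. The full palindrome was in 2 (5.56%), against 2.41% and 1.36%. CCGGAAGT was in 7 (19.4%), against 10.01% and 4.44%. AAGATGGC was in 6 (16.7%), against 6.57% and 3.03%, and the SP1 motif GGGCGG was in 22 (61.1%), against 72.8% and 44.6%. These are matches of letters, with no measure of binding. The 7 genes with the NRF1 core did not share a direction in siSET against siNT: their log2 folds ran from -0.08 in NDUFS7 to 0.46 in ATP5G2. In OP449 against PBS all 7 were lower, from -0.21 in ATP5C1 to -0.03 in SDHD. So were 34 of all 41 subunits, beside 46.3% of all genes past the floor. A link between motif and fold was not tested.

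The subunits were not spread evenly over the libraries' ranks. OP449 held the lowest of the 5 values for 22 of 41 subunits, and for 21.1% of all 6093 genes past the floor. The lowest was in siNT for 10 (all genes 20%) and in siSET, siCIP2A and PBS for 3 each (23.6%, 19.8% and 15.6%). siSET held the highest value for 16 (all genes 22.6%), siCIP2A for 11 (22.0%), siNT for 7 (16.1%) and PBS for 6 (14%). OP449 was highest for a single gene, COX5A, a subunit of complex IV, and for 25.3% of all genes. In complex I the lowest library was OP449 for 11 of 18 genes, and in complex IV for 5 of 7.

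**Figure D2:**
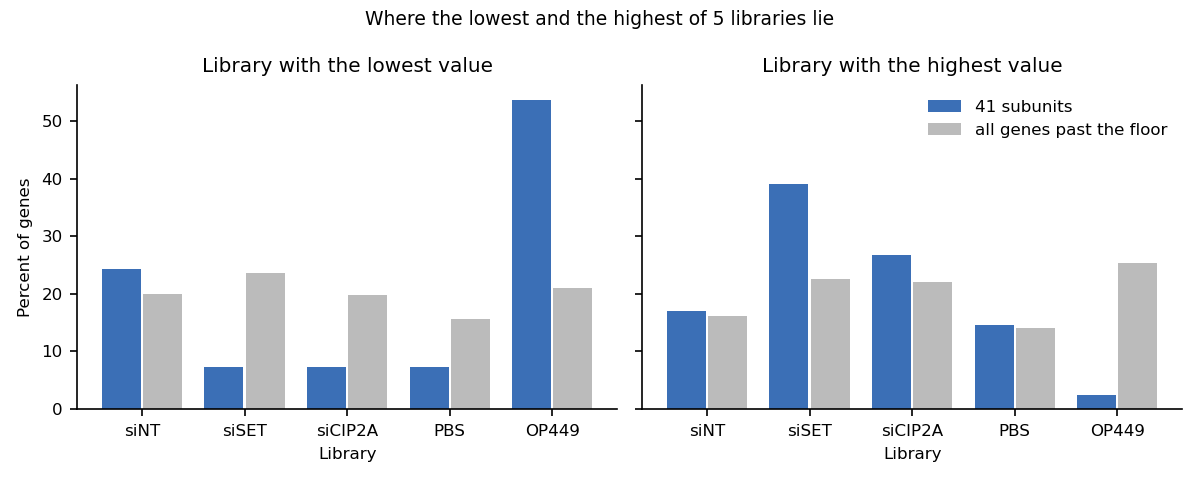
Percent of genes (vertical axis) whose lowest value (left) or highest value (right) lay in each library, for the 41 subunits and for the 6093 genes past the floor. OP449 holds the lowest value for 22 subunits and the highest for 1.

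The first comparison asked what silencing SET does, with siNT as control. In siSET, 29 subunits were higher and 12 lower than in siNT, while 52.1% of the 6084 genes past the floor were higher and 47.9% lower. The median log2 fold of the subunits was 0.10, with 0.01 over all genes. Folds are on log2(value + 1). A threshold of 25% higher, or its inverse of 20% lower, was used to count differences: 6 subunits were at least 25% higher (all genes 11.9%) and 2 at least 20% lower (12.9%). The counting interval of the ratio lay above equality for 13 subunits (all genes 19.8%) and below it for 4 (19.8%). Such intervals narrow with more reads, and the median counting error was 3.69% for the subunits and 5.10% for all genes past the floor. Interval counts of the subunits and shares of all genes, here and below, are thus not at equal depth. Complex II had the highest median of the 5 complexes, 0.45, beside 0.07 in complex I, 0.10 in III, 0.09 in IV and 0.11 in V.

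**Figure D3:**
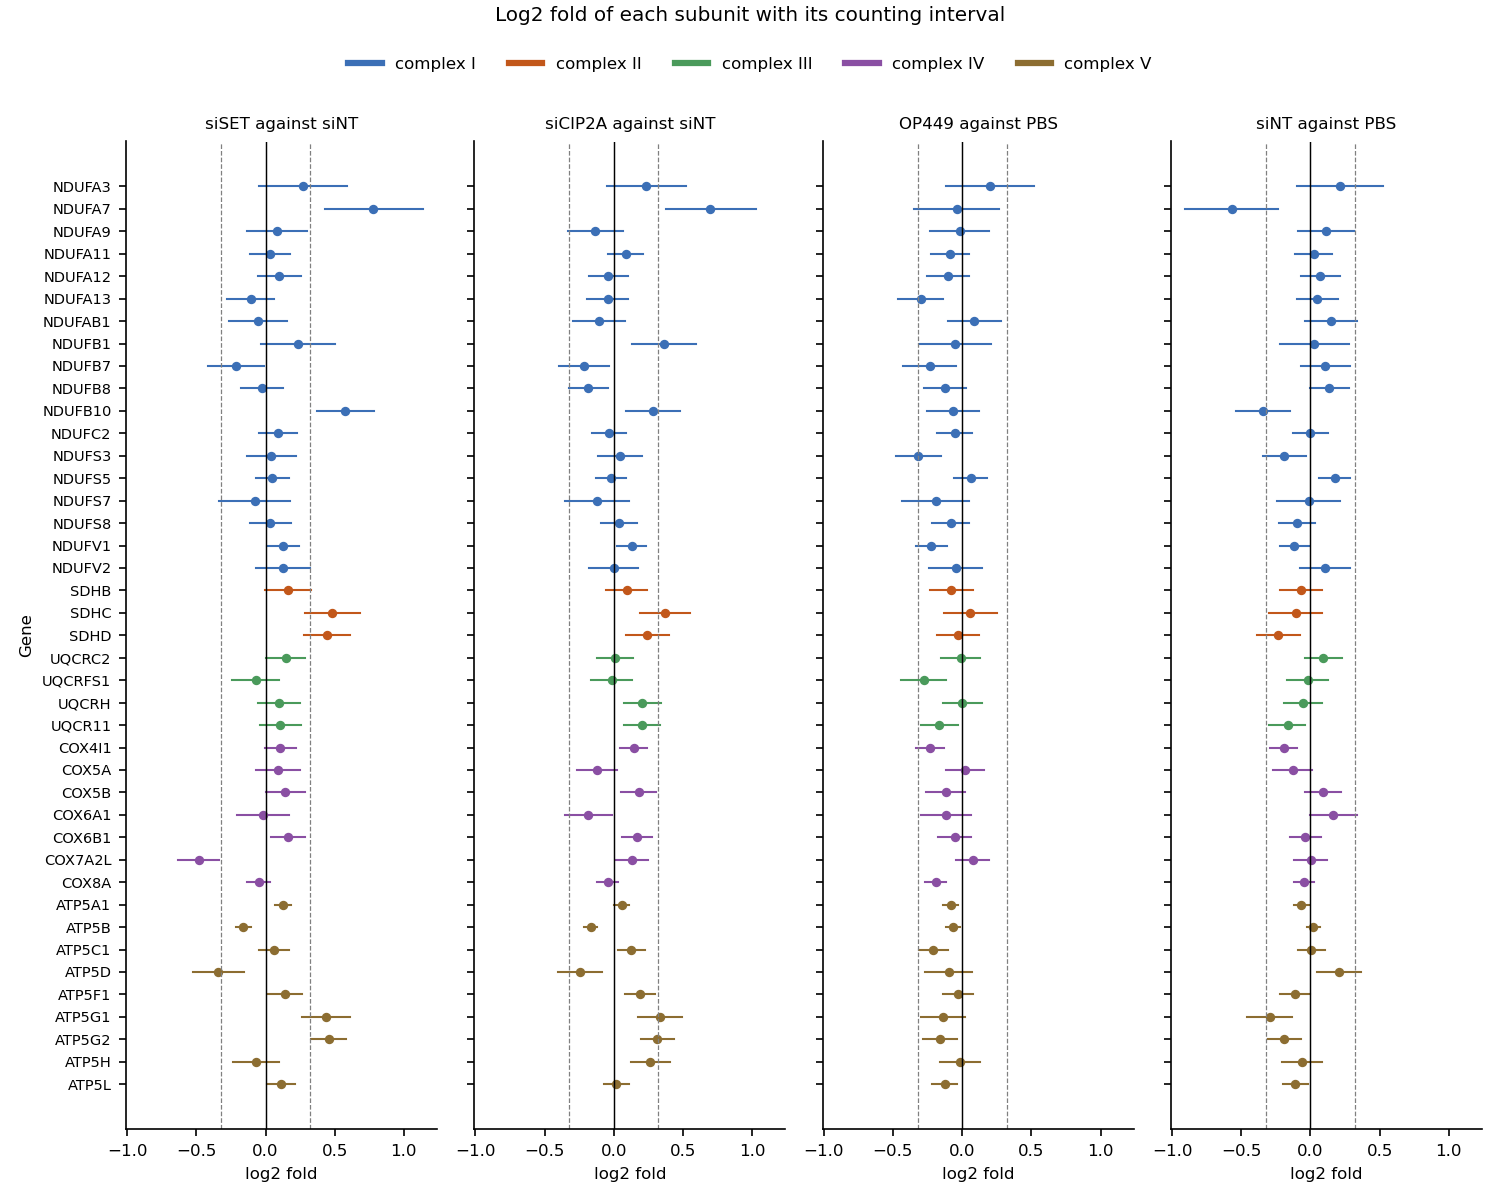
Log2 fold (horizontal axis) of each of the 41 subunits in 4 comparisons, coloured by complex; bars are 95% exact counting intervals and dashed lines mark 25% higher and 20% lower. NDUFA7 at 0.78 and COX7A2L at -0.48 are the extremes of siSET against siNT, and in OP449 against PBS no point passes a dashed line.

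Complex I was led by 2 accessory subunits. NDUFA7 (hg19, chr19:8376234-8386280), of the peripheral arm that holds the electron path, stood at 148 scaled counts in siNT, 219.9 in PBS, 255 in siSET, 241 in siCIP2A and 214 in OP449. siNT was the low library and the other 4 lay close together. The log2 fold of siSET against siNT was 0.78 (0.43 to 1.14), and against PBS it was 0.21 (-0.10 to 0.53). NDUFB10 (chr16:2009517-2011976), of the proton-pumping membrane arm, had 452 in siNT, 574 in PBS, 674 in siSET, 549.9 in siCIP2A and 548 in OP449. Here siNT was low and siSET high, with log2 folds of siSET of 0.58 (0.37 to 0.78) against siNT and 0.23 (0.04 to 0.43) against PBS. At the other end, NDUFB7 of the membrane arm had 632 in siNT, 587 in PBS, 546 in siSET, 543 in siCIP2A and 499 in OP449, a log2 fold of -0.21 (-0.42 to -0.01) in siSET against siNT. The 5 core subunits of the electron path, NDUFS3, NDUFS7, NDUFS8, NDUFV1 and NDUFV2, ran from -0.08 (NDUFS7) to 0.13 (NDUFV1), with a median of 0.04.

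Complex II, succinate dehydrogenase, also works in the citric acid cycle. Its membrane anchors SDHC (chr1:161284166-161334533) and SDHD (chr11:111957571-111966517) were highest in siSET. SDHC had 504 in siNT, 542 in PBS, 705 in siSET, 650.4 in siCIP2A and 564 in OP449, a log2 fold of 0.48 (0.29 to 0.68) in siSET against siNT and 0.38 (0.19 to 0.57) against PBS. SDHD had 717 in siNT, 842 in PBS, 977 in siSET, 847 in siCIP2A and 825 in OP449, with 0.45 (0.28 to 0.61) against siNT and 0.21 (0.05 to 0.37) against PBS. For SDHD, siNT was low, siSET high and the other 3 libraries lay close together. The iron-sulfur subunit SDHB, which faces the matrix, had 821 in siNT, 862 in PBS, 920.3 in siSET, 876 in siCIP2A and 815 in OP449, a log2 fold of 0.16 (-0.00 to 0.33). The flavoprotein SDHA was not analysed here.

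In complex III the log2 folds of siSET were near 0. They ran from -0.07 (-0.24 to 0.10) in UQCRFS1 to 0.14 (0.00 to 0.29) in UQCRC2, a core protein, which had 1089 in siNT, 1022 in PBS, 1204 in siSET, 1094 in siCIP2A and 1015 in OP449. UQCRH, the hinge protein, was at 0.10 and UQCR11 at 0.11.

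Complex IV held the member with the lowest fold. COX7A2L (chr2:42577647-42588356), related to the COX7A subunits and known for its part in joining complexes III and IV into supercomplexes, had 1357 in siNT, 1356 in PBS, 969.9 in siSET, 1485 in siCIP2A and 1430.0 in OP449. Only siSET was low, and its counting interval, 892 to 1053, lay below those of the other 4 libraries. The log2 fold was -0.48 (-0.63 to -0.34) against siNT and -0.48 (-0.63 to -0.34) against PBS. The other 6 subunits of complex IV ran from -0.05 (COX8A) to 0.16 (COX6B1), which had 1428 in siNT, 1465 in PBS, 1598 in siSET, 1603 in siCIP2A and 1411 in OP449.

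**Figure D4:**
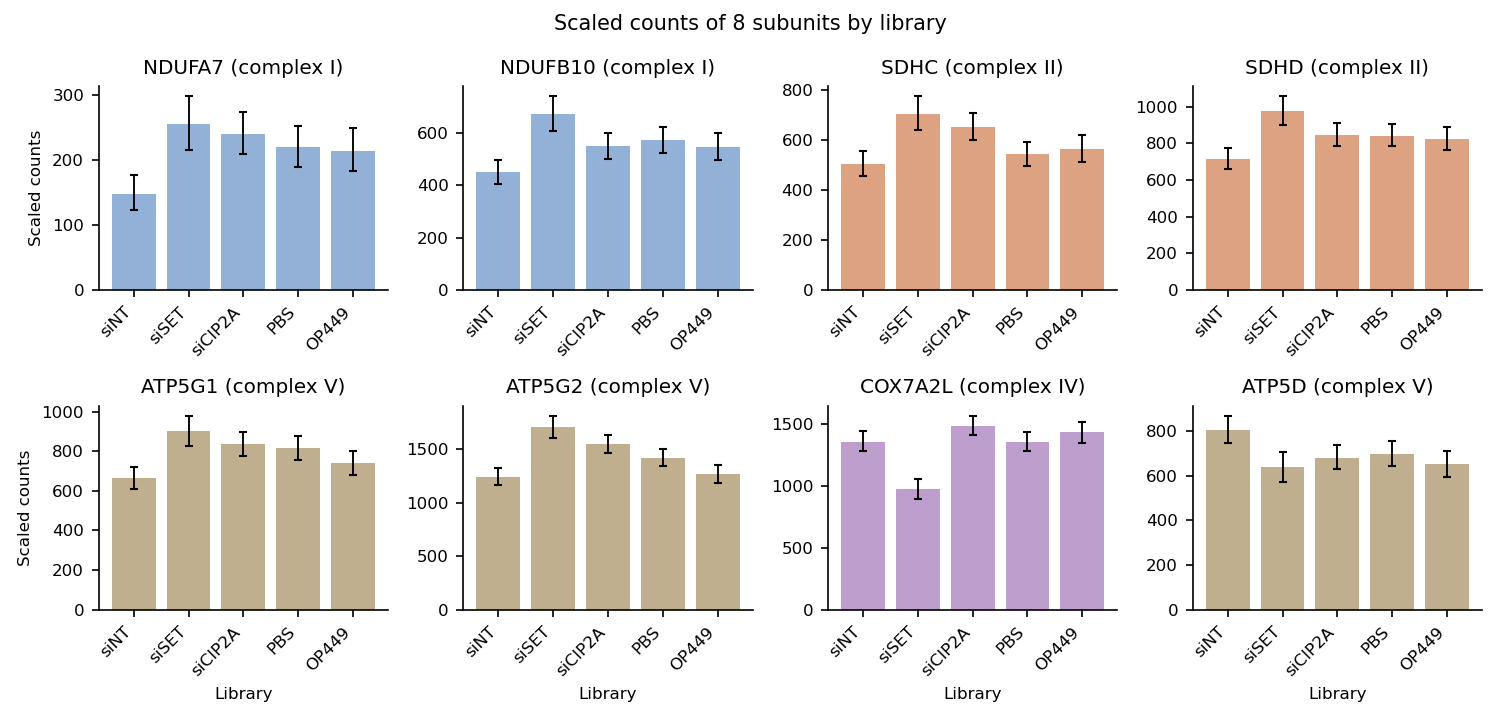
Scaled counts (vertical axes, from 0) of the 8 subunits at least 25% higher or 20% lower in siSET than in siNT, in each of the 5 libraries; bars are 1 library each and error bars 95% exact counting intervals. In 6 panels siSET is highest and siNT lowest, in COX7A2L only siSET is low, and in ATP5D only siNT is high.

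Within ATP synthase some subunits were higher in siSET and others lower. ATP5G1 (chr17:46970148-46973230) and ATP5G2 (chr12:54058945-54070109) encode the same mature protein, subunit c of the rotating ring in the Fo part. ATP5G1 had 664 in siNT, 815 in PBS, 899.8 in siSET, 835 in siCIP2A and 739 in OP449, a log2 fold of 0.44 (0.26 to 0.61) in siSET against siNT and 0.14 (-0.02 to 0.31) against PBS. ATP5G2 had 1243 in siNT, 1417 in PBS, 1706 in siSET, 1546 in siCIP2A and 1266 in OP449, with 0.46 (0.33 to 0.58) against siNT and 0.27 (0.15 to 0.39) against PBS. Both genes for subunit c were lowest in siNT and highest in siSET. In the catalytic F1 part, ATP5D (chr19:1241749-1244823), the delta subunit, had 808 in siNT, 699 in PBS, 638 in siSET, 682 in siCIP2A and 653 in OP449. Its log2 fold in siSET was -0.34 (-0.53 to -0.16) against siNT, the high library, and -0.13 (-0.32 to 0.06) against PBS. ATP5B had 8477 in siNT, 8367 in PBS, 7582 in siSET, 7548 in siCIP2A and 7990.0 in OP449, a log2 fold of -0.16 (-0.22 to -0.11). Its partner in the F1 head, the alpha subunit ATP5A1, was at 0.13 (0.07 to 0.19). The median was -0.05 over the 4 F1 subunits and 0.14 over the 5 of Fo and the stalks. Against PBS these medians were -0.035 and 0.028.

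Several of these values depend on which control is used, since siNT was itself low or high for them. With PBS in place of siNT, 2 subunits were at least 25% higher in siSET (all genes 10.6%), SDHC and NDUFA3, and 1 at least 20% lower (12.6%), COX7A2L. Against PBS the medians of complexes III and IV turned to -0.0067 and -0.037, and those of complexes I, II and V were 0.10, 0.21 and 0.03. PBS differs from siSET in time as well as in treatment. In siNT against PBS, 18 subunits were higher (all genes 49.0%) and 23 lower (51.0%), with a median of -0.02 and -0.00 over all genes. None was at least 25% higher (8.29%) and 2 were at least 20% lower (8.43%), NDUFA7 at -0.57 (-0.91 to -0.24) and NDUFB10 at -0.34 (-0.54 to -0.15). The counting interval lay above equality for 2 (17.7%) and below it for 12 (17.6%). The 3 subunits of complex II and the 5 of Fo and the stalks were all lower in siNT than in PBS, with medians of -0.11 and -0.11. ATP5G1 was lowest in complex V at -0.30 (-0.46 to -0.14) and ATP5D highest at 0.21 (0.05 to 0.37). In complex IV COX4I1 was at -0.19 (-0.29 to -0.09) and COX6A1 at 0.16 (-0.00 to 0.34). In complex III UQCR11, a small membrane subunit, had 1061 in siNT, 1190.2 in PBS, 1143 in siSET, 1220.2 in siCIP2A and 1062 in OP449, with -0.17 (-0.30 to -0.04).

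The second comparison asked what silencing CIP2A does. In siCIP2A, 25 subunits were higher than in siNT (all 6102 genes past the floor 52.7%) and 16 lower (47.3%), with a median of 0.06 and 0.02 over all genes. At the same thresholds 4 were higher (11.9%) and none lower (10.1%). The counting interval lay above equality for 18 (21.3%) and below it for 5 (20.2%). This comparison shares siNT with the one for SET, so the libraries' own values above are to be read side by side. NDUFA7 was at 0.70 (0.38 to 1.03), SDHC at 0.37 (0.19 to 0.55), NDUFB1 at 0.36 (0.13 to 0.60) and ATP5G1 at 0.33 (0.17 to 0.49). NDUFB1, a small membrane-arm subunit of complex I, had 314 in siNT, 308 in PBS, 369.5 in siSET, 404 in siCIP2A and 298 in OP449, so siCIP2A was the highest library. With PBS as control 2 were at least 25% higher (11.8%), NDUFA3 and NDUFB1, and none lower (10.6%).

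By complex, medians in siCIP2A were not alike, a difference that was not tested. Complex I had a median of -0.01 with 8 higher and 10 lower, against 0.24 in complex II, 0.10 in III, 0.13 in IV and 0.13 in V. Against PBS the medians of complexes I and IV changed sign, to 0.0093 and -0.020, and those of complexes II, III and V were 0.02, 0.07 and 0.03. The 5 subunits of Fo and the stalks were all higher than in siNT, with a median of 0.26. Against PBS 4 of them were higher and ATP5L lower, with a median of 0.08. Among them ATP5H, subunit d of the peripheral stalk, had 896 in siNT, 933 in PBS, 854 in siSET, 1076 in siCIP2A and 924 in OP449, and its interval in siCIP2A, 1009 to 1145, lay above those of the other 4 libraries. Its log2 fold was 0.26 (0.12 to 0.40) against siNT and 0.20 (0.07 to 0.34) against PBS. Lowest were SDHB at 0.09 (-0.06 to 0.24) in complex II, ATP5D at -0.24 (-0.40 to -0.09) in complex V, NDUFB7 at -0.22 (-0.40 to -0.04) in complex I, COX6A1 at -0.18 (-0.35 to -0.02) in complex IV and UQCRFS1 at -0.02 (-0.16 to 0.13) in complex III. COX6A1, a regulatory subunit, had 702 in siNT, 626 in PBS, 693 in siSET, 617 in siCIP2A and 577 in OP449. Highest in complex IV was COX5B, which binds zinc, with 1133 in siNT, 1064 in PBS, 1252 in siSET, 1283 in siCIP2A and 979 in OP449, a log2 fold of 0.18 (0.05 to 0.30). In complex III UQCRH was highest at 0.21 (0.07 to 0.34), with 978 in siNT, 1015 in PBS, 1047 in siSET, 1127 in siCIP2A and 1015 in OP449.

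The third comparison asked what OP449 does within 12 hours. In OP449, 34 of 41 subunits were lower than in PBS, while 46.3% of the 6096 genes past the floor were lower. The other 7 were higher (all genes 53.7%). The median log2 fold of the subunits was -0.08, with 0.02 over all genes. The differences were small: none was 25% higher or 20% lower (all genes 9.92% and 8.15%). The counting interval lay below equality for 13 subunits (16.9%) and above it for none (19.3%). The folds of the subunits were close together, with an SD of 0.11 across genes, beside 0.28 over all genes and 0.23 over genes within the range of their means.

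All 5 complexes had a median below 0 in OP449 against PBS: -0.07 in complex I, -0.03 in II, -0.09 in III, -0.12 in IV and -0.10 in V. In complex V 9 of 9 subunits were lower, and in the peripheral arm of complex I 8 of 8. The 5 core subunits of complex I were all lower, with a median of -0.19. NDUFS3 (chr11:47600562-47606115), a core subunit beside the iron-sulfur chain, had 744 in siNT, 848 in PBS, 766 in siSET, 766 in siCIP2A and 680.2 in OP449, a log2 fold of -0.32 (-0.48 to -0.16). PBS was its highest library and OP449 its lowest. NDUFA13 (chr19:19627019-19639013), an accessory subunit also known as GRIM-19, had 849.7 in siNT, 821 in PBS, 789 in siSET, 824 in siCIP2A and 666 in OP449, with -0.30 (-0.47 to -0.14). For NDUFA13 the other 4 libraries lay together and OP449 alone was low. NDUFV1, the NADH-binding subunit that carries the flavin, had 1596 in siNT, 1731 in PBS, 1743 in siSET, 1747 in siCIP2A and 1482 in OP449, with -0.22 (-0.34 to -0.11). NDUFA3 was the highest member at 0.20 (-0.12 to 0.52), with 218 in siNT, 188 in PBS, 263 in siSET, 256 in siCIP2A and 216 in OP449, and here PBS was low.

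In complex III UQCRFS1 was lowest in OP449, with 862 in siNT, 874 in PBS, 821 in siSET, 852 in siCIP2A and 720.2 in OP449, a log2 fold of -0.28 (-0.44 to -0.12). UQCRH was level, at 0.00 (-0.14 to 0.14). In complex IV COX4I1, the largest nuclear subunit and a regulatory one, had 1769 in siNT, 2025 in PBS, 1906 in siSET, 1953 in siCIP2A and 1722 in OP449, with -0.23 (-0.34 to -0.13). COX8A had 3490.2 in siNT, 3606 in PBS, 3370.0 in siSET, 3382 in siCIP2A and 3160.2 in OP449, with -0.19 (-0.27 to -0.11). COX7A2L was highest in complex IV at 0.08 (-0.04 to 0.20). In ATP synthase the gamma subunit ATP5C1, the central shaft, had 1959 in siNT, 1949.7 in PBS, 2041 in siSET, 2139.9 in siCIP2A and 1685 in OP449, with -0.21 (-0.32 to -0.11), and its interval in OP449, 1595 to 1779, lay below those of the other 4 libraries. ATP5H was nearest to equality at -0.01 (-0.16 to 0.13). In complex II SDHB was at -0.08 (-0.23 to 0.07), SDHD at -0.03 (-0.19 to 0.12) and SDHC at 0.06 (-0.13 to 0.25).

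The 14 members whose 5 values are not spelled out here varied by at most 1.21 times. Their highest library was 1.07 times the lowest in NDUFS8 and 1.21 times in NDUFV2, with the others between: the complex I subunits NDUFA9, NDUFA11, NDUFA12, NDUFAB1, NDUFB8, NDUFC2, NDUFS5 and NDUFS7, COX5A of complex IV, and ATP5A1, ATP5F1 and ATP5L of complex V. NDUFAB1, which also serves as an acyl carrier protein, ran from 514 scaled counts in PBS to 570.0 in siNT. ATP5A1, the most abundant of them, ran from 6302 in OP449 to 6971 in siSET.

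Subunit transcripts are short, with a median of 963 bases, against 3070 over the genes past the floor with a length. Folds in OP449 went with length across all genes. Their median was -0.08 for transcripts under 1000 bases, -0.05 from 1000 to under 2000, 0.02 from 2000 to under 4000 and 0.07 from 4000 up. Among the 283 genes under 1000 bases that are not subunits, 186 were lower and 97 higher, with a median of -0.07. The subunits under 1000 bases (23 genes) had a median of -0.09 and those of 1000 bases or more (18 genes) -0.07. With the trend in length and GC content across all genes removed, the subunits' median was -0.03 and 14 were higher. The part of length in the lower values of the subunits was not tested.

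**Figure D5:**
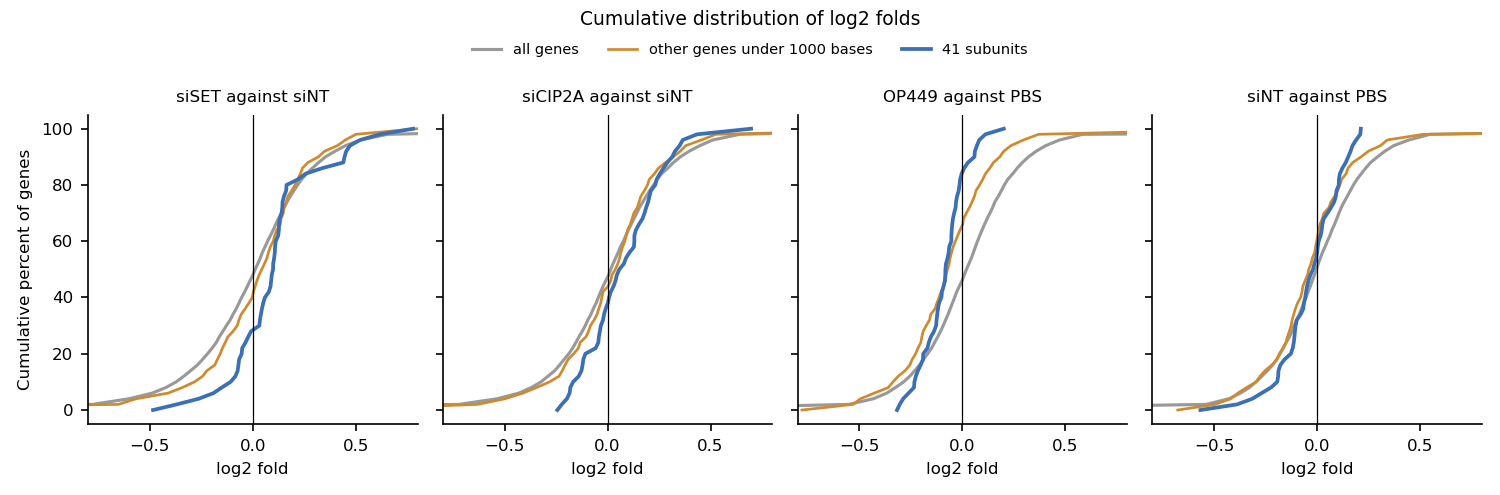
Cumulative percent of genes (vertical axis) by log2 fold (horizontal axis) in 4 comparisons, for all genes past the floor, for other genes with transcripts under 1000 bases, and for the 41 subunits. In OP449 against PBS the subunits and the other short genes both have medians below 0, -0.08 and -0.07, and the subunits have the steeper curve.

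Other genes of the pathway were read from lists of the same kind. Of 3 further nuclear subunits in the table, C14orf2 (ATP5MJ), a small ATP synthase subunit, had 668 in siNT, 725 in PBS, 895 in siSET, 855 in siCIP2A and 699.5 in OP449. Its log2 fold was 0.42 (0.25 to 0.59) in siSET and 0.35 (0.20 to 0.51) in siCIP2A. Of 27 assembly factors, at the thresholds of 25% higher and 20% lower, 4 were higher and 3 lower in siSET, where 11.9% and 12.9% of all genes were. In siCIP2A 6 were higher and 1 lower (all genes 11.9% and 10.1%), and in OP449 1 each (9.92% and 8.15%). The same shares of all genes apply to the lists that follow. Among the assembly factors FAM36A (COX20), which handles a mitochondrially encoded subunit of complex IV, was at -0.56 (-0.77 to -0.35) in siSET, with 479 against 705. SCO1, which delivers copper to complex IV, was at 0.61 (0.40 to 0.81) in siCIP2A, with 572 against 376, but siNT was also below PBS there, -0.54 (-0.75 to -0.34).

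Of 12 regulators and factors for mitochondrial DNA, 10 were higher in OP449 than in PBS (all genes 53.7%), with a median of 0.11, and 1 was at least 25% higher (9.92%). That gene was POLG2, the accessory subunit of the mitochondrial DNA polymerase, at 0.64 (0.27 to 1.02), with 186 against 119. POLG2 was also above PBS in siNT, at 0.24, and in siCIP2A, at 0.56. In siSET, POLRMT, the mitochondrial RNA polymerase, was at 0.41 (0.16 to 0.67) and ESRRA, a nuclear receptor that drives mitochondrial genes, at -0.33 (-0.51 to -0.15). TFAM, which packages mitochondrial DNA, was at 0.13 in siSET and 0.01 in OP449. Of 48 mitochondrial ribosomal proteins, 1 was higher and 2 lower in siSET at these thresholds, and none higher and 2 lower in OP449, where their median was -0.04. Of 10 genes of the citric acid cycle and pyruvate entry, none was higher and 2 were lower in siSET, PDHX at -0.74 (-0.95 to -0.54) and SUCLA2 at -0.59 (-0.88 to -0.30). None was higher and 2 were lower in OP449, PC at -0.51 (-0.65 to -0.36) and IDH2 at -0.50 (-0.74 to -0.26). The controls differed for some of these genes: PDHX was above PBS in siNT, at 0.28. IDH2 was also below PBS in siNT, at -0.25, and in siCIP2A, at -0.43. Of 13 genes of mitochondrial protein import, 1 was higher and 1 lower in siSET, and none passed either threshold in OP449. The 43 cytosolic ribosomal proteins past the floor, which are also short and abundant, had medians of 0.04 in siSET, 0.00 in siCIP2A and 0.01 in OP449. Between the control libraries, siNT against PBS, their median was -0.09. There 35 of them were lower (all genes 51.0%) and 8 higher (49.0%).

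Neighbouring genes and copies bear on some values. Of the 41 subunits, 10 (24.4%) had the start of another gene within 1000 bases on the opposite strand, running away from it, against 12.8% of genes past the floor. SDHD shares such a region with TIMM8B, 49 bases away, an import factor that had 424 in siNT, 391 in PBS, 419 in siSET, 442 in siCIP2A and 369.7 in OP449. TIMM8B was not high in siSET, at -0.02, where SDHD was at 0.45. NDUFA7 shares one with RPS28, 104 bases away, a ribosomal protein at 0.18 in siSET and 0.32 in siCIP2A. COX4I1 shares one with COX4NB, 48 bases away, at -0.84 in siSET, where COX4I1 was at 0.11. Transcripts of NDUFS3, SDHC and ATP5F1 overlap a gene on the other strand by 6, 12 and 88 bases, and the sources used here do not say whether counting used strand. GENCODE names pseudogenes for 27 of the 41 subunits, whose reads could be divided with these copies. The 14 without one had a median of 0.03 in siSET against siNT and -0.13 in OP449 against PBS.

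A binomial test (exact, on recovered reads, with Benjamini-Hochberg adjustment over all genes past the floor), which compares libraries and not conditions, called 8 subunits higher and 3 lower in siSET against siNT, where it called 29.6% of all genes. It called 16 higher and 3 lower in siCIP2A (all genes 33.1%), none higher and 11 lower in OP449 (26.5%), and 2 higher and 7 lower in siNT against PBS (26.0%). Like the intervals, its calls depend on the number of reads, and shares of genes at a matched level are not given. The shares of all genes called by this test count both directions together, and shares by direction are not given.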

How the data were processed

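RNA was reverse transcribed with oligo-dT and sequenced on an Illumina GAII, per the labels' protocols. The submitters' processing notes name hg19, CASAVA and Bowtie 1.0.0. The counting program, its strand setting and the normalization were not given in the sources used here. Per transcript the authors deposited a signal on a common scale, termed scaled counts in the text. Dividing each library by its smallest value above 0 gave whole reads for 100% of values, within 0.001 reads. The worth of 1 read was 1.19 scaled counts for siNT, 1.13 for PBS, 1.29 for OP449, 1.71 for siSET and 1.10 for siCIP2A.

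The table held 16383 rows on chromosomes 1, 10 to 19 and 2 up to 166.5 Mb. Each of 10596 genes was represented by its highest row, and 14 symbols that had become dates were restored. Groups came from the sample labels, and columns were matched by name. Folds are log2(value + 1), a scale that understates low genes, over genes with a mean of at least 50. Ratios have 95% exact Clopper-Pearson intervals from reads. The thresholds of 25% higher and 20% lower, on value + 1, are a description and not a test. Every subunit could be named, with values in all libraries for those past them and for the ends of each complex, and up to 4 genes of each other list. The members and lists were chosen with earlier results of these data known. MRPL56 was left out of its list because an alias matched another gene. Lengths are those of the longest linked GENCODE transcript, and coordinates are hg19 whole transcripts counted from 1. The scripts were tested on simulated data. Python 3.11.15, numpy 2.4.6, pandas 2.3.3, scipy 1.17.1 and matplotlib 3.10.9 were used. Alternatives were other scalings, floors, pseudocounts, transcript rows, PBS as control and removal of the trend in length and GC content. Subsets without pseudogenes or overlaps and the binomial test were chosen after seeing the data.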

Additional observations from a re-analysis of the deposited data

How the results depend on the processing

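The median log2 fold of the subunits in siSET against siNT, 0.10, was 0.049 with the trend in length and GC content removed, 0.066 against PBS and 0.034 in the subunits without a named pseudogene. Subunits at least 20% lower numbered 1 in place of 2 with the trend removed and against PBS, and those higher 2 in place of 6 against PBS. In siCIP2A the median of 0.06 was 0.035 with scaling by the median of ratios, 0.023 against PBS and 0.079 as a mean, and 2 in place of 4 were at least 25% higher against PBS. In OP449 the median of -0.08 was -0.056 at equal totals, -0.105 at equal upper quartiles, -0.030 with the trend removed and -0.132 without pseudogenes. Subunits higher in OP449 numbered 14 in place of 7 with the trend removed, and those at least 20% lower were 1 with the median of ratios and 2 at equal upper quartiles in place of 0. The median of siNT against PBS turned from -0.02 to 0.0091 with the trend removed. The causes of these shifts were not tested. Medians over all 41 subunits kept their sign in the other 3 comparisons under every alternative run, while 5 medians of single complexes, over the 4 comparisons, changed sign. No scaling moved the median of all genes by more than 0.05. No paired analysis was possible because each group is 1 library and the labels carry no replicate numbers. For the same reason no replicate could be left out. Depth limits the least abundant subunit most, with 125 reads for NDUFA7 in siNT.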
